A study of Rattus norvegicus with 65 samples.

Results

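Fhit and Wwox are the rat genes whose human counterparts span the most studied common fragile sites, and their liver mRNA levels are described here across 65 arrays and 22 groups. The members were all probe sets whose annotation names only Fhit or only Wwox: 1369318_at for Fhit, and 1377183_at, 1391883_at and 1396761_at for Wwox. These are 4 of the 20826 probe sets with exactly 1 gene symbol, and 2 of 14217 genes. The pair was selected on the log2 signals of these same arrays, and which comparison prompted the choice is not recorded, so the values of both genes are given as a description, with no test of their own.

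Livers of male Sprague-Dawley rats aged 6 weeks were hybridised to Affymetrix arrays, 1 rat per array, after a carcinogen or no treatment. The titles place 2-AAF, 3MeDAB and DEN in a genotoxic training set with the control group GTX_control, and 1,4-Dioxane, Clofibrate and DL-Ethionine in a nongenotoxic training set with NGTX_control, whose rats the labels call untreated. DCP, ME, SN and Urethane form a test set with no control, and their labels carry a dose with no unit: 50 for DCP and SN, 300 for ME and 500 for Urethane, given 1 time in the short and 3 times in the long groups. Comparisons between test compounds are therefore also between labelled doses, and the 2 cannot be told apart. Each compound has a long and a short group of 3 rats, except DEN_short with 2, and each control group has 3 rats. Short and long are labelled 3 and 72 h, but the protocol describes single and repeated dosing with autopsy a day later, so only the words are used here, and the controls carry no time. What the title abbreviations stand for is not stated beside them, so they are kept as written.

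FHIT is a small hydrolase of the histidine triad family that cleaves diadenosine polyphosphates and acts in the response to DNA damage. WWOX is a short-chain oxidoreductase with WW domains, through which it binds PPxY motifs in proteins such as JUN and p73. Both genes are very long, replicate late in many cells, and lie in regions that break under replication stress. Deletions within them, with loss of the protein, are common in human tumours, liver cancer included.

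In RefSeq's rat annotation (GRCr8) the Fhit gene spans 1507.5 kb on chromosome 15 and the Wwox gene 930.92 kb on chromosome 19, against a median span of 22.3 kb. Fhit ranked 13 and Wwox 44 by length among 14204 annotated genes on the array. Their annotated start windows differ in base composition. The windows (250 bases before to 50 after the table's start, plus strand) are shown because both genes fell together, with motif matches found by a script in capitals.
Fhit, chr15:16398002-16398301: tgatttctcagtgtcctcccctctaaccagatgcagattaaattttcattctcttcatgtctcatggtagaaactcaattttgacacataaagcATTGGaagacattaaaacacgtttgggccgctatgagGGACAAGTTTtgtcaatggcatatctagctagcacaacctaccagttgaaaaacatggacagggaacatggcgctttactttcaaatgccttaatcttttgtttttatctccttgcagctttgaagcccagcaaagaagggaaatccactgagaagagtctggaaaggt
Wwox, chr19:59341134-59341433: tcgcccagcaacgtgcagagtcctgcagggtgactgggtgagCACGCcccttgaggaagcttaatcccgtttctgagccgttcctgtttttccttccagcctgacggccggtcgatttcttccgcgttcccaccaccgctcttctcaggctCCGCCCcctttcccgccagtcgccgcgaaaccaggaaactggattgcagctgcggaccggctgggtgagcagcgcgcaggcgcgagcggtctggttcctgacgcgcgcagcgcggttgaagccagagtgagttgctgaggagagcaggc
The Wwox window is rich in GC (64%, 28 CpG pairs) and the Fhit window poor (40.7%, 3 CpG pairs), with medians of 51.7% and 7 over 33469 rat promoters. In the Wwox line the first capitals are the reverse strand of the aryl hydrocarbon receptor element core GCGTG, starting at -208 and present in 29.7% of promoters, and the second a GC box (GGGCGG, reverse strand, at -99, in 33.1%). In the Fhit line they are a CCAAT box on the reverse strand at -156 (37.5% of promoters) and a p53 half-site, searched as its degenerate consensus, at -119 (7.98%). Neither window held an AP-1 element (TGANTCA, 7.33% of promoters), a CACGTG E-box (6.42%), an antioxidant response element core (TGACNNNGC, 12.1%) or TATAAA (14.2%), on either strand, and the motifs found do not overlap. The starts used lie 32.9 kb from the annotated start of the Fhit gene and 3.0 kb from that of Wwox, with the side not recorded. The annotated genes therefore begin elsewhere, the windows may not be their main promoters, and a match is no evidence of binding.

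Both genes were dim in rat liver. In GTX_control livers the Fhit probe set exceeded 44.6% of all probe sets with 1 symbol and Wwox 1377183_at 36.8%. In ME_long livers these shares were 24.1% for Fhit and 26.2% for Wwox, and in 3MeDAB_long livers 12.9% and 19.4%. The values are log2 signals as the authors deposited them, and no detection call was used, so how near the lowest groups are to background is unknown. The 3 sets appear to have been normalized apart, because the ranges of their arrays' lowest values do not overlap, so no level is compared across sets.

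**Figure D1:**
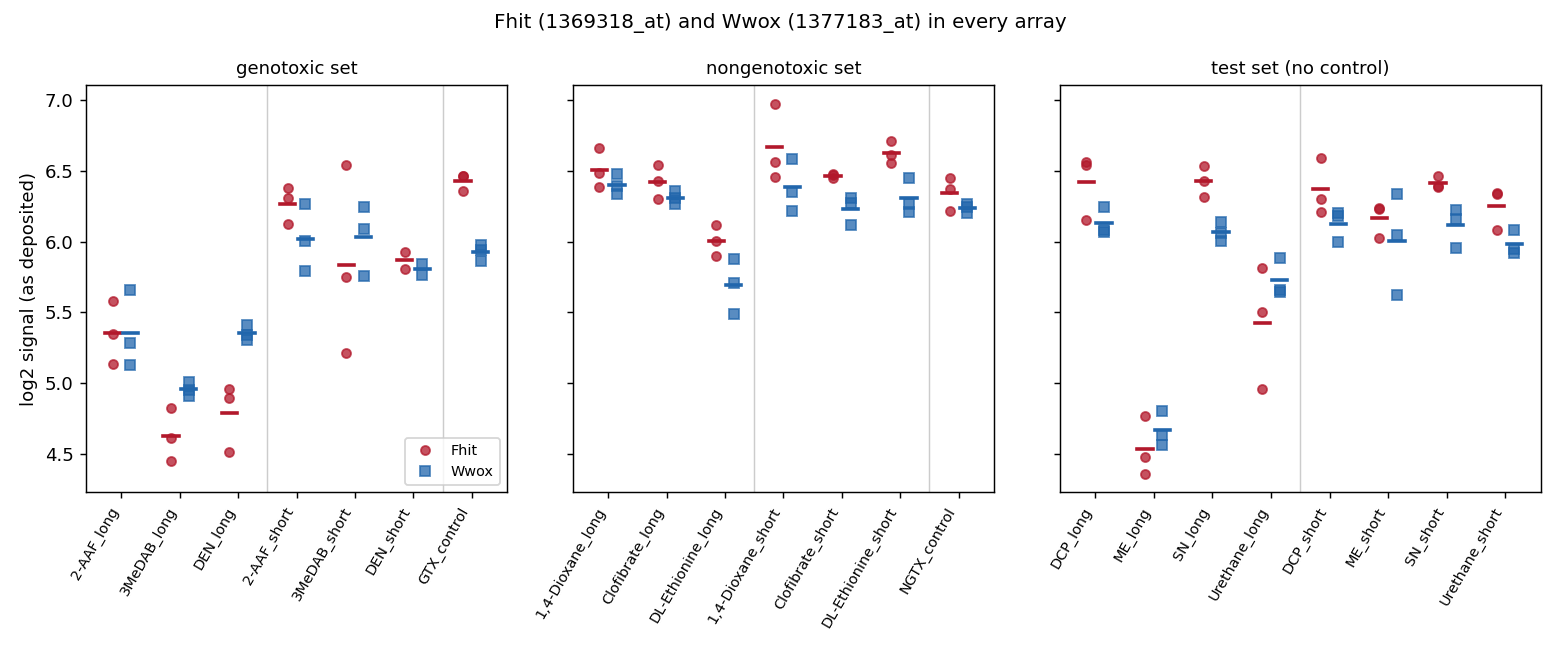
Log2 signal of Fhit (circles) and Wwox (squares, probe set 1377183_at) in each array, by group, with treated groups left of their control and a bar at each group mean (n = 3, DEN_short 2). Within the genotoxic set 3MeDAB_long and DEN_long hold the lowest Fhit means (4.63 and 4.79), against 6.43 in GTX_control, and within the test set ME_long does (4.53).

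The long groups of the genotoxic set asked what the 3 genotoxic carcinogens had done to liver expression relative to untreated rats. Both genes were low with each of the 3. Fhit stood at 5.35, 5.58 and 5.13 in 2-AAF_long livers, at 4.45, 4.61 and 4.82 in 3MeDAB_long livers and at 4.51, 4.90 and 4.96 in DEN_long livers, against 6.36, 6.46 and 6.46 in GTX_control livers. Every one of these 9 treated livers was below every control liver, and 2-AAF_long was the mildest of the 3. The log2 differences (limma, ± SE) were -1.07 ± 0.19 with 2-AAF, -1.80 ± 0.19 with 3MeDAB and -1.64 ± 0.19 with DEN, that is 2.10-, 3.48- and 3.11-fold lower.

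Wwox, read by 1377183_at, stood at 5.13, 5.66 and 5.28 in 2-AAF_long livers, at 5.01, 4.91 and 4.95 in 3MeDAB_long livers and at 5.31, 5.34 and 5.41 in DEN_long livers, against 5.98, 5.86 and 5.94 in GTX_control livers. Again no treated liver reached a control liver. The differences were -0.57 ± 0.12 with 2-AAF, -0.97 ± 0.12 with 3MeDAB and -0.57 ± 0.12 with DEN, smaller than those of Fhit in each case. These 3 comparisons share their control rats and are not independent of each other.

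Both genes passed the threshold used across all genes (limma, Benjamini-Hochberg adjusted p under 0.05) in all 3 comparisons. That threshold was passed by 32.1% of the 11007 genes tested with 2-AAF_long, 53.6% with 3MeDAB_long and 16.7% with DEN_long, so a call by itself is not particular to the pair. The size of the difference placed Fhit at rank 33 from the lowest of 11007 genes in DEN_long, 162 in 3MeDAB_long and 217 in 2-AAF_long. Wwox was at rank 406, 558 and 954 in the same order.

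The nongenotoxic set split by compound. With DL-Ethionine_long, Fhit stood at 6.12, 5.90 and 6.01 in treated livers, against 6.22, 6.37 and 6.45 in NGTX_control livers. Wwox stood at 5.88, 5.49 and 5.71 in DL-Ethionine_long livers, against 6.26, 6.25 and 6.20 in NGTX_control livers. The treated and control livers did not overlap for either gene, but the differences were -0.34 ± 0.19 for Fhit and -0.55 ± 0.12 for Wwox. Only that of Wwox passed the threshold, in a comparison where 53.1% of genes did.

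With 1,4-Dioxane_long and Clofibrate_long both genes lay slightly above the control. The Fhit differences were 0.16 ± 0.19 and 0.08 ± 0.19 and those of Wwox 0.17 ± 0.12 and 0.07 ± 0.12, none past the threshold. Few genes moved at all with these compounds: 0.164% of genes were called with 1,4-Dioxane_long and 0.136% with Clofibrate_long.

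The short groups of the genotoxic set showed smaller differences than its long groups. Fhit stood at 5.75, 5.22 and 6.54 in 3MeDAB_short livers, at 5.81 and 5.93 in DEN_short livers and at 6.12, 6.31 and 6.38 in 2-AAF_short livers, with the GTX_control values as above. The 3MeDAB_short rats disagreed by more than 1 log2 unit, and replicate 3 lay above all control rats. That array also had the highest median signal (6.26) and the lowest maximum (15.79) of the genotoxic set. Both DEN_short rats were below the control range. The Fhit differences were -0.59 ± 0.19 with 3MeDAB_short, -0.56 ± 0.21 with DEN_short and -0.16 ± 0.19 with 2-AAF_short, none past the threshold. By size they were ranks 218, 781 and 2738 from the lowest of 11007 genes. The rank with 3MeDAB_short was thus close to that with 2-AAF_long (217). Calls were made for 0.918%, 17.6% and 8.49% of genes in these comparisons. Without 3MeDAB_short replicate 3 the Fhit difference was -0.94 and passed it.

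Wwox did not follow Fhit in the short groups. It stood at 6.09, 5.76 and 6.25 in 3MeDAB_short livers, overlapping the control, and its differences were 0.11 ± 0.12 with 3MeDAB_short, -0.12 ± 0.14 with DEN_short and 0.10 ± 0.12 with 2-AAF_short. In the nongenotoxic set the short differences ran between 0.12 ± 0.19 (Clofibrate_short) and 0.32 ± 0.19 (1,4-Dioxane_short) for Fhit and between -0.0046 ± 0.12 (Clofibrate_short) and 0.15 ± 0.12 (1,4-Dioxane_short) for Wwox. None passed, where 5.50% of genes did with 1,4-Dioxane_short, 2.90% with Clofibrate_short and 5.15% with DL-Ethionine_short.

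**Figure D2:**
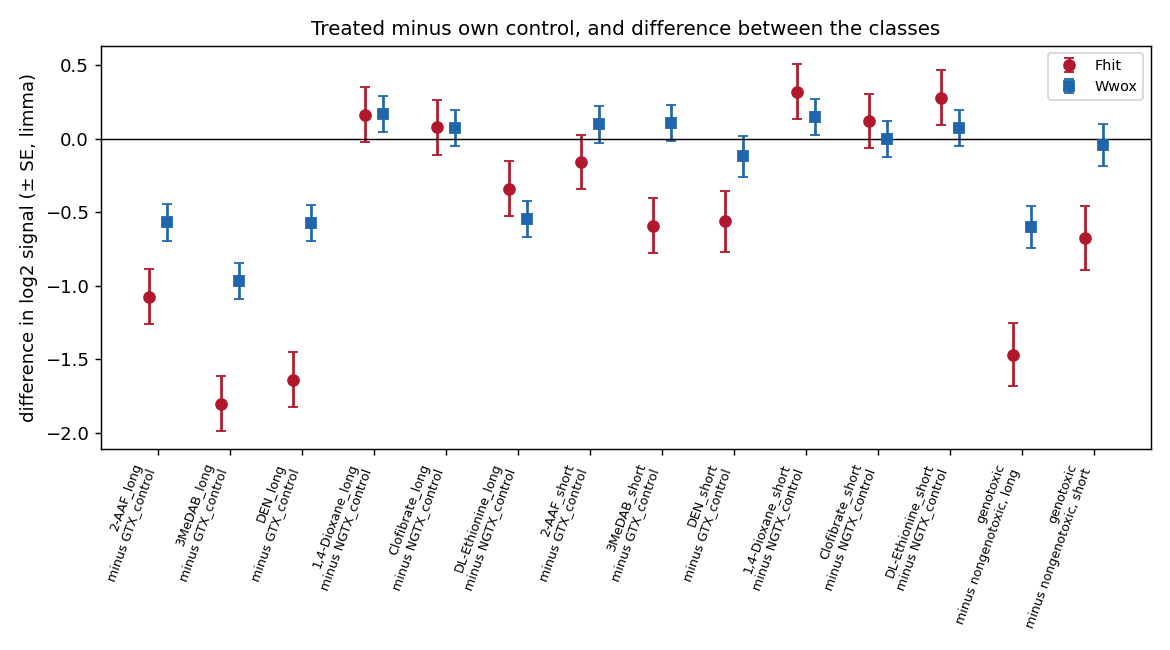
Difference in log2 signal (± SE, limma) of Fhit (circles) and Wwox (squares) for each treated group minus its own control, and for the mean genotoxic minus the mean nongenotoxic effect at the right. The 3 genotoxic long groups lie lowest for Fhit, between -1.80 and -1.07.

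The class comparison, the subject of the study's title, sets the mean effect of the 3 genotoxic compounds against that of the 3 nongenotoxic ones, each taken against its own control. In the long groups both genes were lower with the genotoxic compounds. The difference was -1.47 ± 0.21 for Fhit and -0.60 ± 0.14 for Wwox, both past the threshold, as were 11.8% of genes. These were ranks 48 and 380 from the lowest of 11007. In the short groups the differences were -0.68 ± 0.22 for Fhit and -0.04 ± 0.15 for Wwox, neither past the threshold, which 5.36% of genes passed. Those were ranks 293 and 4769. The class values average unlike compounds: DL-Ethionine_long had a Wwox difference (-0.55) close to those of 2-AAF_long and DEN_long, and whether single compounds differ from it was not tested.

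In the test set, where each compound is set against the mean of the other 3, ME_long had the lowest values of both genes. Fhit stood at 4.48, 4.77 and 4.36 in ME_long livers, against 6.54, 6.56 and 6.15 in DCP_long, 6.31, 6.54 and 6.43 in SN_long and 4.96, 5.82 and 5.51 in Urethane_long livers. Wwox stood at 4.56, 4.63 and 4.80 in ME_long livers, against a range of 5.64 to 6.24 over the other 9 long livers. The ME_long livers overlapped no other group of the set for either gene.

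The differences were -1.56 ± 0.14 for Fhit and -1.31 ± 0.11 for Wwox, or 2.94- and 2.48-fold lower. They were ranks 4 and 6 from the lowest of the 10213 genes tested, in a comparison that called 3.01% of them. Against DCP_long and SN_long alone, leaving out Urethane_long, a comparison added after the values were seen, the differences were -1.89 and -1.43.

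Urethane_long lay between ME_long and the rest. Its differences from the mean of the other 3 were -0.36 ± 0.14 for Fhit and 0.11 ± 0.11 for Wwox, neither past the threshold (13.8% of genes called), but that mean includes ME_long. With ME_long left out they were -0.99 and -0.37, both past it, so the sign of the Wwox value depends on ME_long. Urethane_long replicate 1 was the lowest for Fhit, at 4.96.

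DCP_long and SN_long were called higher for both genes, by 0.96 ± 0.14 and 0.97 ± 0.14 for Fhit and by 0.64 ± 0.11 and 0.56 ± 0.11 for Wwox (37.7% and 5.20% of genes called). Those values too are set by the low ME_long and Urethane_long livers in their reference: without ME_long the Wwox differences were 0.23 and 0.14, no longer past the threshold. The 4 short groups of the test set were close together. Their differences ran between -0.18 and 0.15 for Fhit and between -0.10 and 0.09 for Wwox. None was called, against 42.1% of genes for DCP_short, 9.25% for ME_short, 14.3% for SN_short and 7.73% for Urethane_short.

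Long against short groups of the same compound need no control rats. Fhit stood at 4.48, 4.77 and 4.36 in ME_long livers, against 6.23, 6.03 and 6.24 in ME_short livers, a difference of -1.63 ± 0.17. Wwox stood at 4.56, 4.63 and 4.80 in ME_long livers, against 6.33, 5.63 and 6.04 in ME_short livers, a difference of -1.34 ± 0.13. Long and short rats did not overlap for either gene, and 17.0% of genes were called. With Urethane the Fhit difference was -0.83 ± 0.17 and was called, and the Wwox difference was -0.25 ± 0.13 and was not, beside 13.7% of genes called.

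In the training sets, long minus short was called for both genes with 2-AAF (Fhit -0.91 ± 0.19, Wwox -0.66 ± 0.12, 35.8% of genes called), 3MeDAB (-1.21 ± 0.19 and -1.07 ± 0.12, 59.3%) and DEN (-1.08 ± 0.21 and -0.45 ± 0.14, 30.3%). It was also called for both with DL-Ethionine (-0.62 ± 0.19 and -0.62 ± 0.12), where 51.6% of genes were. Every long rat of these 4 compounds was below every short rat of the same compound for both genes. With 1,4-Dioxane, Clofibrate, DCP and SN the differences lay between -0.16 and 0.05 for Fhit and between -0.05 and 0.08 for Wwox. None of those was called, where 5.31%, 3.47%, 40.0% and 4.86% of genes were.

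The Wwox values above rest on 1 of its 3 probe sets. That one, 1377183_at, was the brightest by the mean of all 65 arrays (5.90, against 5.85 for 1391883_at). In GTX_control livers 1391883_at was the brighter (6.09, against 5.93), so the choice depends on arrays of the other sets. Over all its arrays, 1391883_at lay between 5.70 and 6.73 in the genotoxic set, between 5.82 and 6.53 in the nongenotoxic set and between 5.13 and 5.72 in the test compounds. In 3MeDAB_long livers it stood at 6.13, 5.70 and 6.00, against 6.12, 6.04 and 6.13 in GTX_control livers, and in ME_long livers at 5.40, 5.51 and 5.57, against 5.31, 5.45 and 5.30 in ME_short livers. Treated and comparison livers overlap in both cases, and the differences of group means were -0.15 and 0.14. With 2-AAF_long and DEN_long the differences of 1391883_at from the control were 0.09 and -0.12, neither called. In the class comparison of the long groups its difference was 0.07, not called. Its one call was in 3MeDAB long minus short (-0.38 ± 0.14), where replicate 3 of 3MeDAB_short was high.

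The third probe set, 1396761_at, exceeded the filter on low values in 0 arrays and stood between 3.92 and 5.40 throughout. Its differences in the long comparisons with a control ran between -0.20 (3MeDAB_long) and 0.10 (1,4-Dioxane_long). The part of the Wwox transcripts that each probe set reads was not analysed here, and neither were isoforms. Averaged over the 3 probe sets with no filter, an alternative added after the values were seen, the Wwox difference was -0.44 with 3MeDAB_long and -0.41 with ME_long, still called. It was -0.13 with 2-AAF_long and -0.23 with DEN_long, not called. Fhit has 1 probe set, so no such check exists for it.

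**Figure D3:**
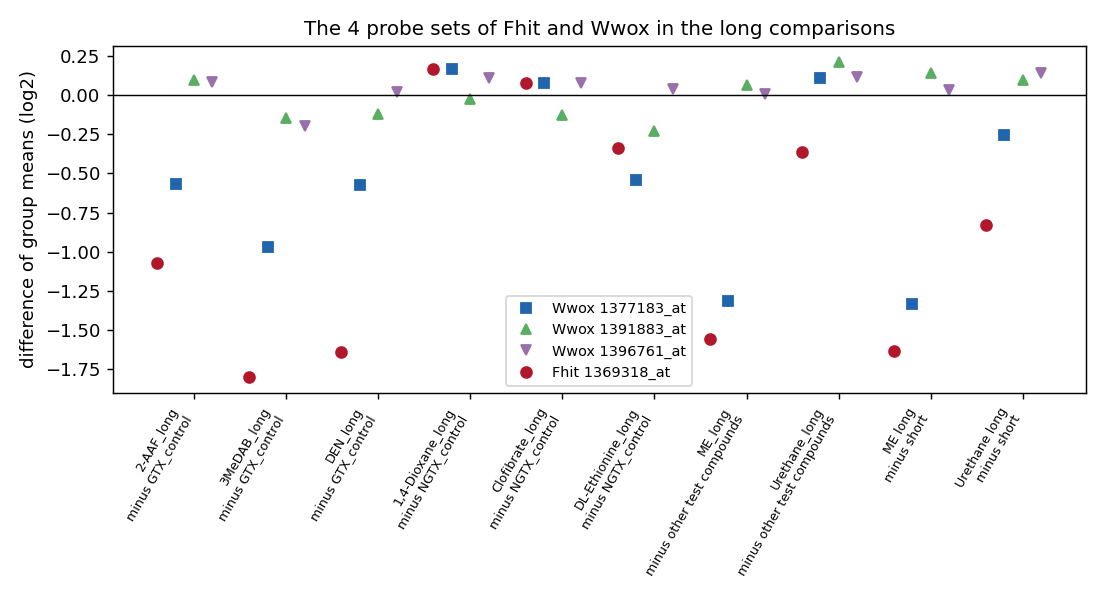
Difference of group means (log2) of the Fhit probe set and the 3 Wwox probe sets in the long comparisons. The squares (1377183_at) follow the Fhit circles in ME_long and the genotoxic groups, while the triangles (1391883_at and 1396761_at) stay between -0.23 and 0.21.

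The long groups of the same compounds were lowest for both genes. In the genotoxic set Fhit ran 4.63 ± 0.19 (3MeDAB_long), 4.79 ± 0.24 (DEN_long), 5.36 ± 0.22 (2-AAF_long), 5.84 ± 0.67 (3MeDAB_short), 5.87 ± 0.08 (DEN_short), 6.27 ± 0.13 (2-AAF_short) and 6.43 ± 0.06 (GTX_control; SD, n = 3 a group except 2 for DEN_short). The rats of 3MeDAB_long and DEN_long overlap, as do those of 3MeDAB_short with its neighbours. In the test set ME_long (4.53 ± 0.21) and Urethane_long (5.43 ± 0.43) stand below the other 6 groups, whose Fhit means lie between 6.17 and 6.43, each overlapping its neighbours. In the nongenotoxic set DL-Ethionine_long (6.01 ± 0.11) stands below the other 6 groups, which run between 6.35 ± 0.12 (NGTX_control) and 6.67 ± 0.27 (1,4-Dioxane_short), each overlapping its neighbours.

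Wwox ran 4.96 ± 0.05 (3MeDAB_long), 5.35 ± 0.05 (DEN_long), 5.36 ± 0.27 (2-AAF_long), 5.80 ± 0.06 (DEN_short), 5.93 ± 0.06 (GTX_control), 6.02 ± 0.24 (2-AAF_short) and 6.03 ± 0.25 (3MeDAB_short; SD) in the genotoxic set. The rats of DEN_long and 2-AAF_long overlap, as do those of the 2-AAF_short and 3MeDAB_short groups with the control. In the nongenotoxic set DL-Ethionine_long (5.69 ± 0.19) is again the lowest group and the others lie between 6.23 and 6.40. In the test set ME_long (4.67 ± 0.13) and Urethane_long (5.73 ± 0.14) are lowest, and Urethane_long overlaps ME_short (6.00 ± 0.36).

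Over the 12 training differences the Fhit and Wwox values had a Pearson correlation of 0.86, and over the means of the 8 test groups 0.97. These are descriptions over few points that share control rats or arrays. By that measure, with Wwox read by 1377183_at, Fhit ranked 164 among all genes for likeness to Wwox. Wwox ranked 33 among them for likeness to Fhit. The closest were Fbln5, which codes for an elastic fibre protein (0.95), Slc25a21, a mitochondrial oxodicarboxylate carrier (0.94), Tfdp2, a partner of E2F factors (0.94), Col22a1 (0.93) and the methyltransferase gene Smyd1 (0.92). Over the 8 test groups, which were not used to pick them, their correlations with Fhit were between 0.09 and 0.50. The value of Wwox there (0.97) cannot be weighed against these. Fhit and Wwox were selected as a pair on the same arrays, and the test groups may have prompted that choice.

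The genes closest to Wwox were Dgat2, the last step of triglyceride synthesis (0.97), the flavin monooxygenase gene Fmo1 (0.97), Abcc8 (0.97), Pik3c2g (0.96) and Acss2, which makes acetyl-CoA from acetate (0.95). In the test groups their correlations with Wwox ran between -0.59 and 0.20. The most opposite to Fhit were Clu (-0.96), Hyal3 (-0.95) and Pmf1 (-0.94), and to Wwox Thyn1 (-0.97), Pvt1 (-0.97) and Upf3a (-0.97).

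Of 18 other genes known to lie in human common fragile sites, 11 had a probe set and 9 were tested in the training sets. Immp2l, a subunit of the mitochondrial inner membrane peptidase, was the one that fell with the genotoxic compounds and with ME_long alike. It averaged 8.04 ± 0.05 in 2-AAF_long, 6.18 ± 0.18 in 3MeDAB_long and 7.28 ± 0.09 in DEN_long livers, against 8.53 ± 0.02 in GTX_control livers (SD, n = 3 each). In ME_long livers it stood at 6.53, 6.66 and 6.74, against 7.41, 7.49 and 7.52 in ME_short livers and 7.53, 7.59 and 7.63 in SN_long livers.

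The Immp2l differences were -0.49 ± 0.09, -2.36 ± 0.09 and -1.26 ± 0.09 with 2-AAF_long, 3MeDAB_long and DEN_long (limma, adjusted p = 8.7e-05, 1.1e-19 and 3.4e-12). With DL-Ethionine_long the Immp2l difference was -0.70 ± 0.09 and with ME_long -0.87 ± 0.09 (adjusted p = 6.6e-08 and 3.6e-05). The Immp2l gene spans 899.72 kb, close to Wwox. The class difference in the long groups was -1.13 ± 0.10 (adjusted p = 4.2e-09).

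Dpyd, the first enzyme of pyrimidine breakdown, fell in the training sets but not with ME_long. It averaged 9.96 ± 0.16 in 2-AAF_long, 8.15 ± 0.23 in 3MeDAB_long and 10.0 ± 0.27 in DEN_long livers, against 11.2 ± 0.11 in GTX_control livers (SD). The Dpyd class difference was -1.61 ± 0.15 (limma, adjusted p = 5.6e-09), and its ME_long difference was 0.22 ± 0.08 (adjusted p = 0.12).

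Dab1, an adaptor of reelin signalling, fell with 2-AAF_long (-1.13 ± 0.30), 3MeDAB_long (-1.19 ± 0.30) and DL-Ethionine_long (-1.70 ± 0.30), and stood higher by 1.54 ± 0.32 in ME_long than in the mean of the other test compounds (limma, adjusted p = 0.017). That value rests on the DCP_long livers: Dab1 averaged 6.76 ± 0.10 in ME_long, against 6.56 ± 0.84 in SN_long, 5.62 ± 0.88 in Urethane_long and 3.49 ± 0.12 in DCP_long livers (SD). Without DCP_long, an alternative added after the values were seen, its difference was 0.67 and not called (limma, adjusted p = 0.42). Without DCP_long those of Fhit, Wwox and Immp2l were -1.39, -1.23 and -0.80, all still called, while the genes called in all were 7 higher and 15 lower. Rora, a nuclear receptor of the clock, rose with 3MeDAB_long (1.19 ± 0.42) and DL-Ethionine_long (1.67 ± 0.42). Dmd, Nbea, Cntnap2, Sdk1 and Esrrg were not called in any of the 6 long comparisons with a control.

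Counted by comparison, 3 of the 9 genes were lower and 0 higher with 2-AAF_long (16.1% and 16.0% of all genes), 3 lower and 1 higher with 3MeDAB_long (17.7% and 35.9%), and 2 lower and 0 higher with DEN_long (6.31% and 10.4%). With DL-Ethionine_long 3 were lower and 1 higher (23.0% and 30.04%). With ME_long 1 of the 7 tested there was lower and 1 higher (1.38% and 1.63%). The median differences of the list, 0.02 with 2-AAF_long, -0.22 with 3MeDAB_long and -0.13 with DEN_long, stood beside 0.00, 0.12 and 0.00 over all genes.

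**Figure D4:**
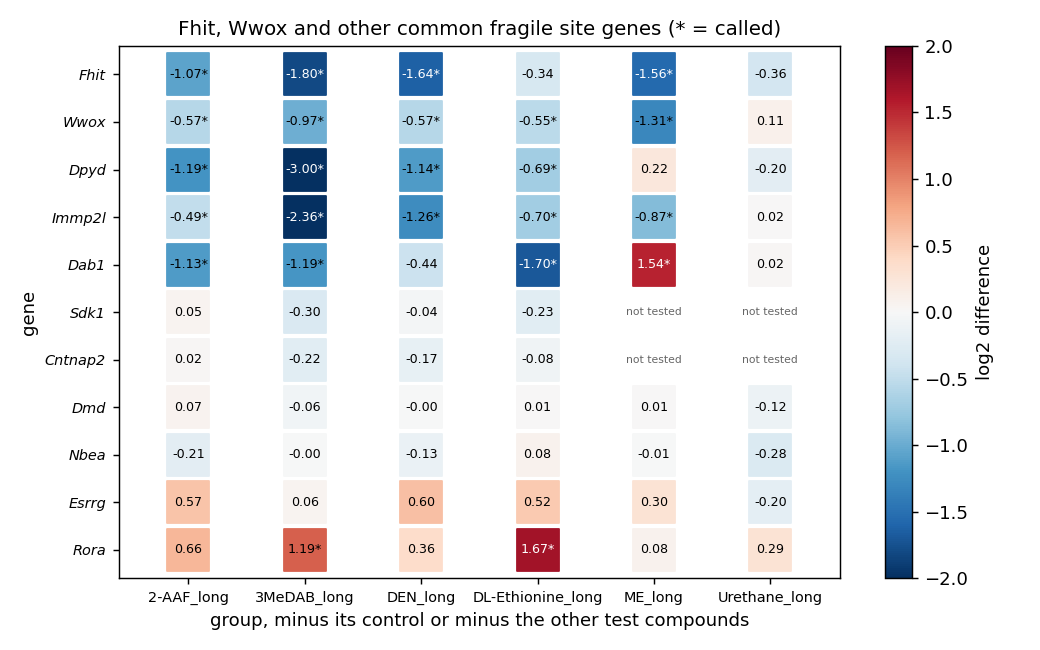
Log2 difference of Fhit, Wwox and 9 other common fragile site genes in 6 long groups, against their control or against the other test compounds (ME_long, Urethane_long). An asterisk marks an adjusted p under 0.05, and Immp2l and Fhit are low in ME_long (-0.87 and -1.56) where Dpyd is not (0.22).

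Longer genes were called lower more often in several comparisons. The steepest was DEN_short, where Fhit (-0.56) and Wwox (-0.12) were not called: 44.4% of the 392 tested genes of 200 to 500 kb and 37.3% of the 83 of at least 500 kb were lower, against 2.01% of those under 10 kb. With 3MeDAB_long, 39.8% of these 83 were called lower, against 13.9% of those under 10 kb. With DEN_long the shares were 16.9% and 5.26%, with 2-AAF_long 27.7% and 12.4%, with Urethane_long 24.6% of 61 and 6.35%, and with ME_short 26.2% of 61 and 3.02%. The shares of higher genes ran the other way, at 4.82% and 11.5% with DEN_long. Fhit and Wwox are themselves among the genes of at least 500 kb, so the shares at that length include them.

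With ME_long, of the 61 tested genes of at least 500 kb, 4 were lower and 4 higher, and from 30 to 500 kb no more than 1.12% of genes were lower, against 2.05% under 10 kb. The 4 that were lower are Fhit, Wwox, Immp2l and Sugct (-0.55 ± 0.10, 857.84 kb). Fhit and Wwox, selected on these same arrays, are thus part of that count. The median difference of the 61 was 0.08, against a mean that includes Urethane_long, whose own median over them was -0.16. Without Urethane_long in that mean 6 of the 61 were lower and 4 higher with ME_long, with a median of 0.01. With DL-Ethionine_long the share called lower was 25.3% at 500 kb or more and 20.0% under 10 kb. Span was taken from the annotation and is tied to other gene properties, which were not examined.

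**Figure D5:**
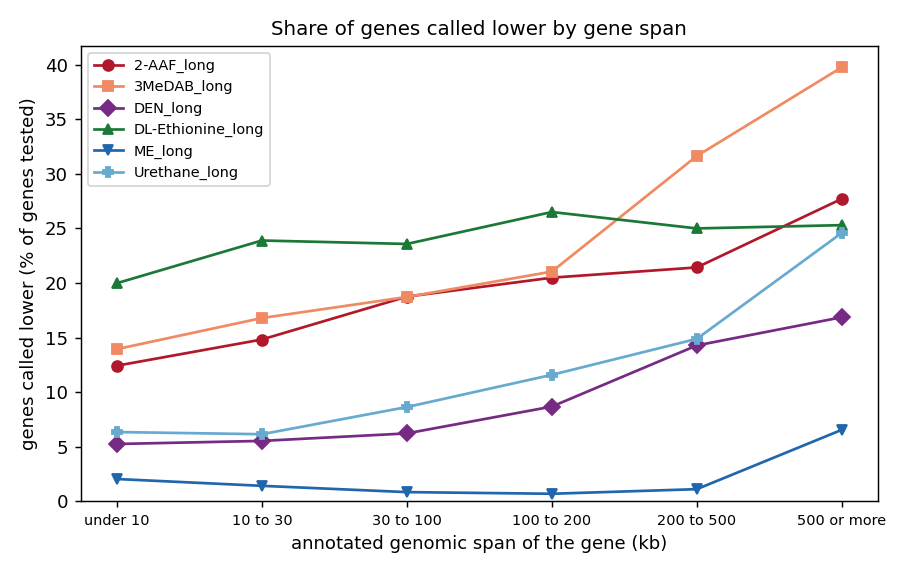
Share of tested genes called lower (adjusted p under 0.05) by annotated gene span, for 6 long groups against their control or the other test compounds. The share at 500 kb or more is 39.8% in 3MeDAB_long and 6.56% in ME_long, where it stands for 4 genes, Fhit and Wwox included.

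The nearest 3 genes with a probe set on each side are Cep15, Fezf2, Cadps, Cfap20dc, Fam3d and Fam107a for Fhit, and Clec3a, Nudt7, Mon1b, Maf, Dynlrb2 and Cdyl2 for Wwox. Of the Fhit neighbours Cep15 was the one tested, and its difference was 0.40 ± 0.12 with 2-AAF_long (limma, adjusted p = 0.0088), 0.19 ± 0.12 with 3MeDAB_long and 0.11 ± 0.12 with DEN_long. Of the 5 tested Wwox neighbours, Nudt7, a peroxisomal CoA hydrolase, rose by 0.93 ± 0.24 and Mon1b fell (-0.48 ± 0.13) with 2-AAF_long, so that 3 of the 6 tested neighbours were called there, beside 32.1% of all genes. None of the 6 was called with 3MeDAB_long or DEN_long, where 53.6% and 16.7% of all genes were, and none of the 4 tested with ME_long (3.01%).

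Relatives of FHIT by fold, the histidine triad genes, were read together with Nit1, which is fused to Fhit in flies and worms. Of the 6 tested, Hint2 (0.64 ± 0.10), Nit1 (0.39 ± 0.11), Hint3 (0.44 ± 0.12) and the strand break repair gene Aptx (0.78 ± 0.24) were higher with the genotoxic than with the nongenotoxic compounds in the long groups, 4 of 6 where 7.80% of all genes were. With DL-Ethionine_long 5 of the 6 fell (23.0% of all genes did), among them Hint3 (-2.15 ± 0.10) and Hint2 (-1.24 ± 0.08). The class values of the genes that fell there, Hint2 among them, include that fall. That of Hint3 rests on the nongenotoxic side: its difference was 0.12 with 2-AAF_long, -0.10 with 3MeDAB_long and -0.21 with DEN_long, none called. With ME_long none of the 6 was called, beside 3.01% of all genes.

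Of 7 tested genes of WWOX binding partners, Wbp1 was the one called in the class comparison of the long groups (0.42 ± 0.09), beside 11.8% of all genes. It fell with DL-Ethionine_long (-1.48 ± 0.07), and the class value includes that fall on its nongenotoxic side. With 3MeDAB_long Wbp1 was lower as well (-0.20 ± 0.07). Jun, which codes for an AP-1 subunit bound by WWOX, was higher by 1.63 ± 0.40 with 3MeDAB_long and by 1.68 ± 0.40 with DL-Ethionine_long, and by 2.40 ± 0.45 with DEN_short and 1.24 ± 0.40 with 2-AAF_short. Ezr, the ezrin gene, was higher with 3MeDAB_long (0.70 ± 0.19), DEN_long (0.75 ± 0.19) and DL-Ethionine_long (1.60 ± 0.19), and lower with 2-AAF_long (-0.52 ± 0.19), 2-AAF_short (-0.70 ± 0.19) and 3MeDAB_short (-0.87 ± 0.19). With ME_long none of the 7 was called, beside 3.01% of all genes.

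Of 24 tested genes of the replication stress response, 2 were lower and 0 higher in the class comparison of the long groups, beside 3.95% and 7.80% of all genes. They were Topbp1, an activator of ATR (-0.74 ± 0.22), and Rpa1, which coats single-stranded DNA (-0.45 ± 0.13). With 3MeDAB_long 9 of the 24 were higher (35.9% of all genes) and 1 lower (17.7%), and with DEN_long 3 were higher (10.4%) and 0 lower (6.31%), so the higher counts were near those of all genes. With ME_long 0 of 23 were called in either direction, beside 3.01% of all genes.

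Targets of p53 were mostly higher with the 3 genotoxic compounds and DL-Ethionine in the long groups. Of 21 tested, 13 were higher with 2-AAF_long (16.0% of all genes), 15 with 3MeDAB_long (35.9%), 14 with DEN_long (10.4%) and 16 with DL-Ethionine_long (30.04%). Mdm2, the p53 ubiquitin ligase, was up in these 4 by 2.71 ± 0.20, 3.21 ± 0.20, 1.96 ± 0.20 and 3.72 ± 0.20. DL-Ethionine_long had the highest of these Mdm2 differences and the smallest of the 4 Fhit differences. Its Wwox difference (-0.55) was close to those of 2-AAF_long and DEN_long (-0.57 each). Whether the p53 targets bear on either gene was not tested. With ME_long, set against the other test compounds, 0 of the 21 were higher and 3 lower (1.63% and 1.38% of all genes). Among the 3 were Mdm2 (-0.79 ± 0.09) and Ccng1 (-0.98 ± 0.12), while Cdkn1a was at -0.57 ± 0.32 and not called. Those values include the high Urethane_long livers in the mean they are set against. Without Urethane_long the Mdm2 difference was -0.21 and not called, that of Ccng1 was -0.49, and 2 of the 21 were lower (2.06% of all genes). Mdm2 averaged 8.09 ± 0.04 in ME_long, against 8.15 ± 0.12 in SN_long, 8.44 ± 0.22 in DCP_long and 10.04 ± 0.20 in Urethane_long livers (SD, n = 3 each). With Urethane_long 9 were higher (6.06% of all genes) and 0 lower, Mdm2 by 1.82 ± 0.09 and Cdkn1a by 1.78 ± 0.32. The repair gene Mgmt was higher by 3.12 ± 0.13, 2.85 ± 0.13 and 2.17 ± 0.13 with 2-AAF_long, 3MeDAB_long and DEN_long and by 2.96 ± 0.13 with DL-Ethionine_long, and stood at -0.10 ± 0.20 with ME_long.

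Other measures also moved with some groups. The summed signal of 5 of 6 listed hepatocyte markers (log2) was 16.37 to 16.38 in 2-AAF_long, 16.39 to 16.43 in 3MeDAB_long and 16.48 to 16.51 in DEN_long livers, against 16.46 to 16.54 in GTX_control, so the first 2 lay below the control range. In ME_long it was 16.29 to 16.36, within the range of the other long test groups. Single hepatocyte markers split: with 3MeDAB_long Apob was lower (-0.42 ± 0.09) and Apoa1 higher (0.40 ± 0.09). The sum of 6 of 7 listed macrophage markers was 12.70 to 13.13 in 2-AAF_long, 13.78 to 14.16 in 3MeDAB_long and 13.97 to 14.13 in DEN_long livers, against 13.41 to 13.62 in GTX_control, below it in the first and above it in the other two. With DL-Ethionine_long it was 14.40 to 14.75, against 12.83 to 13.17 in NGTX_control.

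The sum of 5 leukocyte markers was 8.34 to 8.79 in 2-AAF_long, 9.07 to 9.46 in 3MeDAB_long and 9.83 to 9.95 in DEN_long livers, against 8.98 to 9.09 in GTX_control, and 9.84 to 10.10 in DL-Ethionine_long, against 8.87 to 8.94 in NGTX_control. A sum follows its brightest members, and single leukocyte markers split. Ptprc was higher (1.33 ± 0.19) and Cd79b lower (-0.34 ± 0.12) with DEN_long. Ms4a1 (-0.61 ± 0.19) and Cd3e (-0.40 ± 0.14) were lower with 3MeDAB_long. The sum of 5 proliferation markers was 7.95 to 8.17 in 2-AAF_long, 8.80 to 9.21 in 3MeDAB_long and 9.96 to 11.50 in DEN_long livers. In GTX_control it was 9.54 to 9.70, above 2-AAF_long and 3MeDAB_long and below DEN_long. It was 7.67 to 8.08 in DL-Ethionine_long, against 9.43 to 9.97 in NGTX_control. In the test set it was 8.46 to 9.49 in ME_long and 7.11 to 7.55 in Urethane_long, against 8.10 to 9.39 in SN_long and 11.04 to 11.56 in DCP_long livers. No marker of these lists was at 0, since RMA values have no zero. Their part in the Fhit and Wwox values was not tested, and in whole liver a lower share of the expressing cells and less RNA per cell cannot be told apart. The Gapdh 3′ minus 5′ difference, a measure of RNA integrity, was 0.19 to 0.95 in 2-AAF_long, 0.24 to 0.39 in 3MeDAB_long and 0.52 to 0.84 in DEN_long livers, against 0.44 to 0.63 in GTX_control. It was 0.50 to 0.84 in ME_long, against 0.43 to 0.53 in ME_short.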

How the data were processed

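The table holds log2 signals for 31099 probe sets on 65 arrays, made by the authors with RMA (background correction, quantile normalization and summary per probe set), per the submitters' processing notes, with the version not given in the sources used here. One array that failed is said in the design text to have been dropped. Group membership follows the titles. Precision is limited by the number of arrays.

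Symbols came from the platform's annotation: 20826 probe sets carry 1 symbol, 436 several and 9780 none, besides 57 control probe sets. The brightest probe set stood for each of 14217 genes. Genes whose signal exceeded the table's median (6.03, or 5.65 within the test set) in at least 2 arrays entered limma 3.58.1 (R version 4.3.3, data.table version 1.17.8). Each group had its own mean, with default eBayes, for 11007 genes over the 41 training arrays and 10213 over the 24 test arrays. The 4 member probe sets were also read from a fit of every probe set (14589 and 13415). Fhit and Wwox 1377183_at passed the filter in both fits, 1391883_at in the training fit and 1396761_at in neither. Calls are two-sided Benjamini-Hochberg adjusted p-values under 0.05 for each comparison, and the members' calls are printed as a description, without p-values.

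The members, the gene lists and the comparisons were chosen with earlier results of these data known. Named besides the members are, for each, the 5 genes most and 3 least correlated over the 12 training differences, the called list members with the largest differences, other list members given as examples, the neighbours, and Cdkn1a, Mdm2, Ccng1 and Mgmt. Sugct was named after its values were seen. Neighbours, spans and start windows came from RefSeq (GRCr8), and the array files name no build. The fit was tested on simulated data. Settings varied were the filter (none, or 7.99 and 7.70 on the log2 scale), the probe sets (their mean, or each on its own), the moderation (trend and robust), quantile normalization across the sets, the arrays fitted (only the compared groups), a replicate block and the omission of each rat. Figures were drawn with Python 3.11.15, pandas 2.3.3, numpy 2.4.6 and matplotlib 3.10.9.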

Additional observations from a re-analysis of the deposited data

Results flagged for a closer look

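With Wwox read by 1377183_at, every long rat was below every short rat for both genes with 4 of the 6 training compounds. The control cancels in this contrast. The long minus short differences of Fhit were -0.91 with 2-AAF, -1.21 with 3MeDAB, -1.08 with DEN and -0.62 with DL-Ethionine. Those of Wwox were -0.66, -1.07, -0.45 and -0.62 with the same compounds. For 2-AAF, 3MeDAB and DL-Ethionine the Wwox value follows a short group at or above its control. Fhit was already at -0.59 with 3MeDAB_short and -0.56 with DEN_short, neither called. By 1391883_at the Wwox differences were 0.08, -0.38, -0.26 and -0.12 in the compound order above, and long and short rats overlapped except with DEN. By 1396761_at they were 0.24, -0.14, -0.03 and 0.08.

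Both were also lower with the genotoxic than with the nongenotoxic compounds in the long groups, by differences of -1.47 for Fhit and -0.60 for Wwox. Each of these passed the threshold used across all genes, but the pair was chosen with such values in view, so they are descriptions and not tests. Groups of 3 rats are too small for a formal check of single outlying arrays. Of the genotoxic arrays, 3MeDAB_short replicate 3 had the highest median signal (6.26) and the lowest maximum (15.79). Calls that depend on it are given below.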

How the results depend on the processing

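Over the planned settings and those added later, 253 of 260 Fhit values and 217 of 228 Wwox values kept their direction and their side of the threshold, and with each rat left out 270 of 273 and 272 of 273 did. Neither gene passed the stricter filter, nor did the mean of the 3 Wwox probe sets pass the main one, so those gave no value. With only the compared groups in the fit, the Wwox value was no longer called for 2-AAF_long (-0.57) and 2-AAF long minus short (-0.66), nor Fhit for Urethane long minus short (-0.83), and Fhit became called for DL-Ethionine_long (-0.34) and DEN_short (-0.56). Quantile normalization of all columns made Fhit called for DEN_short (-0.59) and for the short class difference (-0.70). With all 3 Wwox probe sets averaged and no filter, Wwox was no longer called for 2-AAF_long (-0.13), DEN_long (-0.23), the long class difference (-0.21), DCP_long (0.13), SN_long (0.14) or 2-AAF long minus short (-0.11). Without ME among the other compounds, the Wwox call was lost for DCP_long (0.23) and SN_long (0.14), Fhit was called for Urethane_long (-0.99), and the Urethane_long values of Wwox (-0.37) and Immp2l (-0.31) changed sign. Against the others without DCP_long, a setting not in the counts above, ME_long stayed called for Fhit (-1.39) and Wwox (-1.23), with 7 genes called higher and 15 lower (166 and 141 against all 3). Quantile normalization moved the median of all genes by over 0.1 in 3MeDAB_long (0.12 as deposited, 0.01 after) and in 3MeDAB long minus short (0.15 and 0.01).

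Leaving out each rat gave a range of -0.94 to -0.28 for Fhit in 3MeDAB_short, of -0.79 to -0.57 in the short class difference, both called without 3MeDAB_short replicate 3, and of -0.56 to -0.13 in Urethane_long, called without Urethane_long replicate 2. The Wwox range in DEN long minus short was -0.49 to -0.41, not called without DEN_short replicate 3. With the replicate block, the Fhit value for DEN_short was -0.60 and called, and no other call of either gene changed. In 1 of 12 comparisons every pair of same-numbered rats correlated above 0.1 (-0.22 to 0.18 over 35 pairs), so the numbers do not pair the rats.

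Counts of called genes moved by more than 1.5 times mainly with only the compared groups: 1214 (3538 in the fit of all groups) for 2-AAF_long, 37 (18) for 1,4-Dioxane_long, 28 (15) for Clofibrate_long, 410 (935) for 2-AAF_short, 5 (101) for 3MeDAB_short, 291 (605) for 1,4-Dioxane_short, 135 (319) for Clofibrate_short, 13 (567) for DL-Ethionine_short, 202 (307) for ME_long, 337 (531) for SN_long, 430 (945) for ME_short, 877 (1458) for SN_short and 363 (789) for Urethane_short. For long minus short they were 1128 (3938) with 2-AAF, 213 (382) with Clofibrate, 161 (1737) with ME, 232 (496) with SN and 758 (1399) with Urethane. The mean of all probe sets gave 59 for 3MeDAB_short, and 54 with no filter, which also gave 186 for ME_long and 341 for SN_long. Every probe set on its own gave 29 for 1,4-Dioxane_long, and SN_long without ME gave 1616. The cause was not tested. Low signal limits both genes, and 3 rats per group limit the precision.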
